A study of Homo sapiens with 6 samples.

Results

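The genes described here are 45 genes of the NRF2, glutathione and thioredoxin systems, taken by symbol from the deposited table of 58302 genes. They were listed by function (NRF2 and its inhibitor, glutathione synthesis and use, the thioredoxin system, peroxiredoxins, superoxide dismutases and catalase, detoxification enzymes and ferritin). All 45 symbols were found once in the table. RNA-seq was made from A549 cells, an epithelial line from a human lung adenocarcinoma. There were 3 libraries of cells given 1.0 µM S541 (compound 5n) for 48 h and 3 libraries of cells given the solvent DMSO for the same time. Both groups are the same line in the same medium, so the compound is the 1 labelled difference. The labels do not say whether replicates were separate cultures, and p-values here therefore rest on library-to-library spread that may be no more than technical.

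NRF2, encoded by *NFE2L2*, is the transcription factor that switches on antioxidant and detoxifying genes. In unstressed cells KEAP1 holds NRF2 and brings it to a ubiquitin ligase, so that NRF2 is degraded. Oxidants and electrophiles modify KEAP1, NRF2 accumulates, pairs with a small MAF protein and binds antioxidant response elements near its target genes. Much of this control acts on the protein, which RNA-seq does not measure. Glutathione, made from cysteine, glutamate and glycine, and thioredoxin are the main thiol reductants of the cell, and both draw on NADPH. A549 is widely known as a line in which KEAP1 is impaired and NRF2 is active without added stress; the sequence of *KEAP1* was not analysed here.

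After S541, 3 of the 45 genes rose and 1 fell. The genes that rose were *SLC7A11*, the cystine importer that feeds glutathione synthesis, *SRXN1*, which repairs overoxidised peroxiredoxins, and *SOD2*, the mitochondrial superoxide dismutase. *EPHX1*, the microsomal epoxide hydrolase, fell. *NFE2L2*, *KEAP1*, the 2 subunits of glutamate-cysteine ligase, thioredoxin and its reductases, the 6 peroxiredoxins and both ferritin chains did not pass the test. Of the 45 genes, 43 had enough counts to be tested, and the remaining 39 of them did not pass. The 4 that passed are 9.30% of those tested, beside 8.19% of all 15847 tested genes (4.02% higher and 4.17% lower in S541), so the share is near the background and is not a result about the list. The threshold was an adjusted p under 0.05 (edgeR quasi-likelihood test, Benjamini-Hochberg adjustment over all tested genes). Log2 fold changes were above 0 in 21 and below 0 in 22 of the 43, with a median of −0.03 beside −0.00 over all tested genes. The median absolute log2 fold change was 0.19, against 0.21 over all tested genes. In bulk RNA a change in the share of cells that express a gene and a change in RNA per cell cannot be told apart.

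Total counts ranged from 13956648 to 17044139 per library, and the 45 genes held 1.06, 1.09 and 1.15% of the counts in S541 replicates 1 to 3 and 1.03, 1.11 and 0.998% in DMSO replicates 1 to 3. On the second principal component (21.4% of the variance) S541 replicate 3 stood apart at −20.5 and DMSO replicate 2 at −34.4. These libraries also tended to be high for the genes described here: S541 replicate 3 was the highest of its group in 28 of the 43 tested genes, and DMSO replicate 2 in 22. Without these libraries, a fit added after the data were seen, the count was again 3 higher and 1 lower; *SLC7A11*, *SOD2* and *EPHX1* were among them, *SRXN1* was not (edgeR adjusted p = 0.0807) and *OSGIN1* passed (0.0493). Of 7 epithelial markers, *KRT8* and *KRT18* fell (log2 fold changes −0.50 and −0.63) and the others did not pass. Those were *KRT19* (1.71), *CLDN4* (0.46), *KRT7* (0.25), *EPCAM* (0.22) and *CDH1* (−0.92). *CLDN4* spread widely, with 643, 16 and 762 counts in S541 and 18, 557 and 565 counts in DMSO. Together the 7 summed to 391 to 442 FPKM in S541 and 433 to 492 FPKM in DMSO. Of 7 alveolar type 2 markers, *ABCA3* fell (−0.44), the list summed to 17.0 to 17.5 FPKM in S541 and 22.5 to 23.2 FPKM in DMSO, and the surfactant protein genes *SFTPB*, *SFTPC*, *SFTPA1* and *SFTPA2* had 0 to 8 counts in each library. Leukocyte, endothelial, fibroblast and retinal marker lists summed to at most 3.65 FPKM in any library, with no marker changed; retinal genes were included because the series design uses that word, while each sample is labelled A549. Their part in the results below was not tested.

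**Figure D1:**
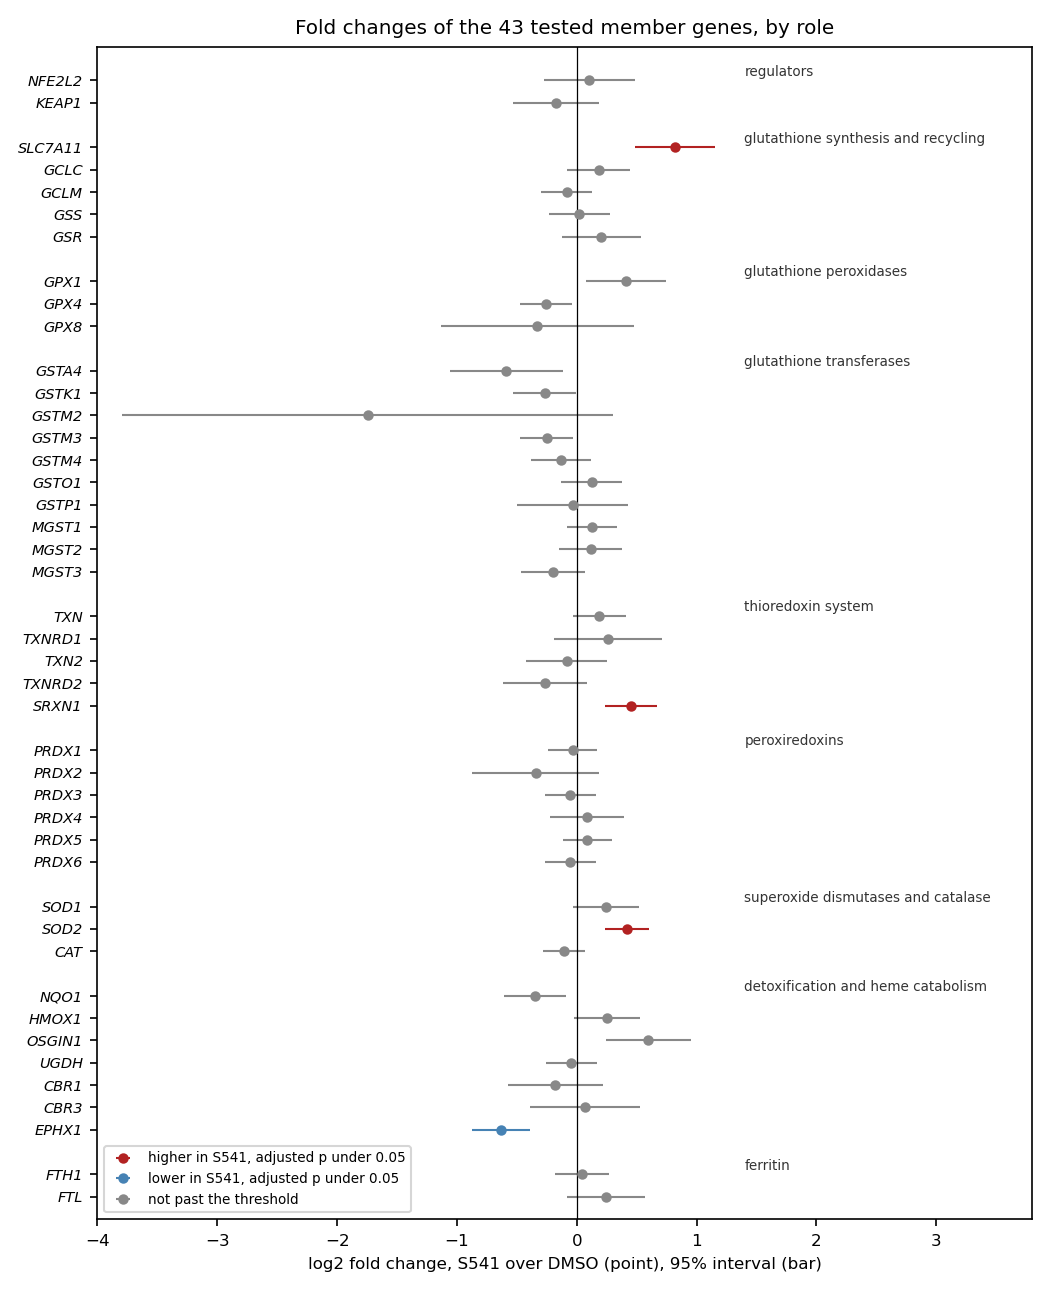
Log2 fold change of each of the 43 tested genes, S541 over DMSO, grouped by role, with 95% intervals from the edgeR fit (3 libraries per group). Red points are the 3 genes that rose, the blue point is *EPHX1*, which fell, and grey points did not pass; the widest interval belongs to *GSTM2* (−3.79 to 0.30).

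The promoter windows of RefSeq (build GRCh38.p14), each 250 bases before to 50 bases after a start, were searched for the core of the antioxidant response element, TGACNNNGC, on both strands. A window was searched for 34 of the 45 genes. The motif stood in the windows of 10 of these genes (29.4%) and in 16.1% of all 27305 genes with a window; by window, the shares were 22.4% of 49 and 13.3% of 35116. The 10 genes were *KEAP1*, *GCLM*, *GPX2*, *GSTA4*, *GSTO1*, *GSTP1*, *MGST1*, *TXNRD1*, *CBR1* and *EPHX1*. Of the 4 genes that passed the test, *EPHX1* was the one with a match, in 1 of its 3 windows, while the windows of *SRXN1* and *SOD2* held 0 matches and *SLC7A11* has no entry in the table. No window was searched for *GSS*, *GSR*, *MGST2*, *TXN2*, *PRDX1*, *PRDX6*, *SOD1*, *HMOX1*, *CBR3* and *FTH1* either, so the share among the listed genes leaves them out. A match describes letters, not bound protein, and the absence of one concerns these windows alone.

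The sequences below let the match in the gene that fell be read beside those in textbook NRF2 targets and beside a gene that rose. Capitals mark TGACNNNGC on the printed strand or its reverse complement, and each stretch ends at the base before the start. They lie at chr1:225825234-225825353 (plus strand) for *EPHX1*, chr1:93909431-93909510 (minus) for *GCLM*, chr12:104215659-104215778 and chr12:104286912-104287031 (both plus) for the upstream and downstream starts of *TXNRD1*, chr11:67583692-67583811 (plus) for *GSTP1* and chr20:653201-653450 (minus) for *SRXN1*. The match begins 78 bases before the start in *EPHX1*, 34 in *GCLM* and 66 in *GSTP1*. In *TXNRD1* the capitals begin 99 bases before the upstream start and 102 before the downstream one. A second match of the upstream window, GCTCCGTCA, begins 8 bases before that start, runs past the printed end and is left in lower case. The *GSTP1* match, TGACTCAGC, also contains the AP-1 letters TGACTCA. The *SRXN1* stretch has no capitals.
EPHX1: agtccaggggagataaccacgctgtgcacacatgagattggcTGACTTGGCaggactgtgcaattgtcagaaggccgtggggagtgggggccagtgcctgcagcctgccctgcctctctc
GCLM: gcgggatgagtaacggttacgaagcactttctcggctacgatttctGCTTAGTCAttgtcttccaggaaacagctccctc
TXNRD1 upstream start: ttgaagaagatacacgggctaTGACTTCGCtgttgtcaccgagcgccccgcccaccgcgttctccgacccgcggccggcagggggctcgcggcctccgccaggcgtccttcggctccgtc
TXNRD1 downstream start: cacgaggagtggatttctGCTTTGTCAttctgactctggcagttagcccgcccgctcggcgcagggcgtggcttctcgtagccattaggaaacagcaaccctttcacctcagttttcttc
GSTP1: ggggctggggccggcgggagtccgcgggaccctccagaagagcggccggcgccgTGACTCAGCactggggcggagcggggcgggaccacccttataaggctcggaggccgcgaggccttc
SRXN1: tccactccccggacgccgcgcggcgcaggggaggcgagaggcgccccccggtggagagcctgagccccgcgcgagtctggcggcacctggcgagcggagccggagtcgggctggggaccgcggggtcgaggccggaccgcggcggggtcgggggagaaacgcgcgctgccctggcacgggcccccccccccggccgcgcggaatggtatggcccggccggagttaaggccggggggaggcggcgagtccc

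By FPKM (fragments scaled by a gene length and library total), ferritin stood highest of the 45 genes. The lengths behind these values did not follow annotated exon bases in every gene. Orders and summed shares of genes here and below therefore hold for the deposited FPKM only. *FTL*, the light chain of the iron store ferritin, averaged 1049 ± 123 FPKM in S541 and 868 ± 139 FPKM in DMSO (SD, n = 3 each). Its FPKM did not overlap those of any other member. *FTH1*, the heavy chain, averaged 448 ± 26.3 FPKM in S541 and 427 ± 43.5 FPKM in DMSO. Its range overlapped that of *PRDX1*, the main cytosolic peroxiredoxin, at 380 ± 25.6 and 382 ± 23.0 FPKM. In counts scaled to library size alone (CPM), *FTH1* lay above *FTL*. *FTH1* had 2710 ± 180 CPM in S541 and 2632 ± 295 CPM in DMSO. *FTL* had 916 ± 123 CPM in S541 and 771 ± 131 CPM in DMSO. *FTH1* has 2030 annotated exon bases and *FTL* 878, and the FPKM of *FTH1* is lower than these bases would give. The order of the 2 chains thus depends on the length used. Below a gap came *TXN*, *PRDX5*, *GSTP1* and *PRDX6*, between 120 and 246 FPKM in any library, neighbours in this order whose ranges overlapped. *NFE2L2* and *KEAP1* themselves were modest messages, together 10.8 to 11.8 FPKM in S541 and 10.5 to 12.1 FPKM in DMSO. At the low end *GSTA4* had 0.543 to 0.768 FPKM in S541 and 0.931 to 1.05 FPKM in DMSO, and *GPX2* and *GPX3* were too low to test. *GPX2*, an epithelial glutathione peroxidase, had 3, 2 and 6 counts in S541 and 3, 1 and 3 counts in DMSO. *GPX3*, the secreted form, had 3, 1 and 4 counts in S541 and 5, 11 and 4 counts in DMSO.

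**Figure D2:**
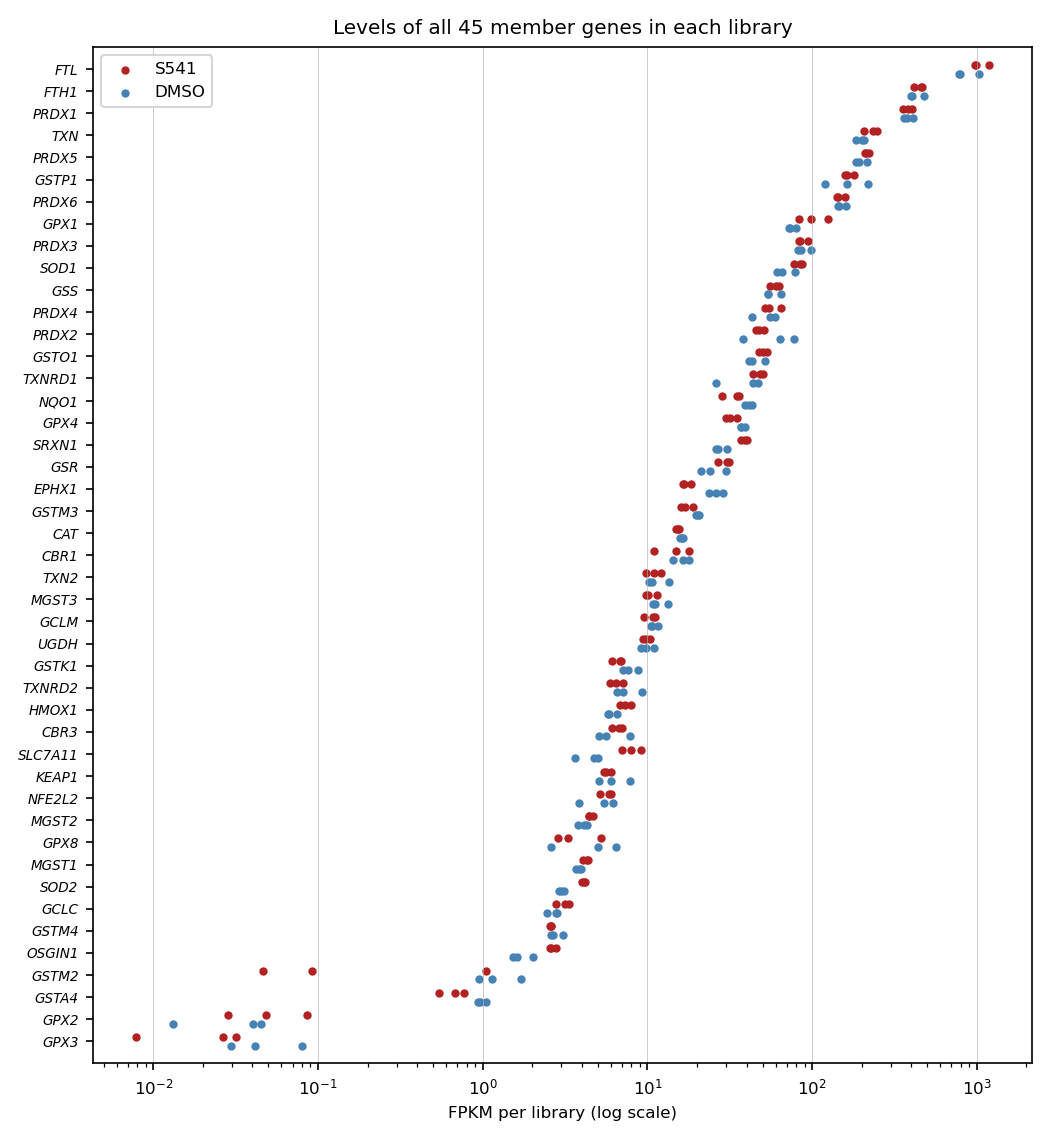
FPKM of all 45 genes in each of the 6 libraries on a log axis, 1 point per library (S541 red, DMSO blue), ordered by mean. The points span from *GPX3* and *GPX2*, at most 0.086 FPKM, to *FTL* at up to 1191 FPKM, and for most genes the S541 and DMSO points overlap.

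The 2 regulators did not pass the test, and DMSO libraries varied more than S541 libraries in both. *NFE2L2* had 69.7, 68.5 and 61.5 CPM (counts scaled to library size, with TMM factors) in S541 and 46.2, 66.1 and 73.2 CPM in DMSO. The S541 values fell inside the DMSO range, and the log2 fold change was 0.11 (95% interval −0.27 to 0.49, edgeR adjusted p = 0.737). *KEAP1* had 45.2, 50.1 and 48.2 CPM in S541 and 67.1, 43.8 and 50.7 CPM in DMSO. Its S541 values also lay inside the DMSO range, with a log2 fold change of −0.17 (−0.53 to 0.19, edgeR adjusted p = 0.554). The library that set the DMSO spread in both genes was DMSO replicate 1, lowest for *NFE2L2* and highest for *KEAP1*. Without it the log2 fold change of *NFE2L2* was −0.07 and that of *KEAP1* 0.01. The exons of *NFE2L2* share 20.9% of their bases with other annotated genes, among them *AGPS*, and whether strand was used in counting is not stated in the labels.

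Of the 5 genes for glutathione synthesis, cystine import and recycling, 1 rose and 4 did not pass. *SLC7A11* (ENSG00000151012, chromosome 4, 138164097 to 138242349, hg38) encodes the subunit of the xCT exchanger that takes up cystine for glutamate. It had 76.8, 88.7 and 69.7 CPM in S541 and 46.9, 36.4 and 49.7 CPM in DMSO. Every S541 library lay above every DMSO library. The means were 78.4 ± 9.61 CPM in S541 and 44.3 ± 7.01 CPM in DMSO (SD, n = 3 each), a 1.77-fold difference with a log2 fold change of 0.82 ± 0.14 (SE) and an edgeR adjusted p of 0.0165. In the authors' deposited table its adjusted p-value was 0.000251. The edgeR adjusted p was 0.0629 and 0.0665 without S541 replicates 1 and 2, with log2 fold changes of 0.84 and 0.73. An antisense gene, *SLC7A11-AS1*, overlaps 8.97% of its exon bases and had 9 to 21 counts per library. *SLC3A2*, the other subunit of the exchanger, was at 393 ± 34.9 CPM in S541 and 387 ± 69.9 CPM in DMSO, with a log2 fold change of 0.02 (edgeR adjusted p = 0.941).

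Glutamate-cysteine ligase makes the first and limiting step of glutathione synthesis. Its catalytic subunit, *GCLC*, had 38.2, 43.6 and 47.6 CPM in S541 and 39.2, 35.0 and 39.7 CPM in DMSO. The groups overlapped at the lowest S541 library, and the log2 fold change was 0.18 (95% interval −0.08 to 0.45, edgeR adjusted p = 0.370). The modifier subunit, *GCLM*, had 87.2, 90.2 and 78.5 CPM in S541 and 86.3, 89.0 and 96.0 CPM in DMSO. Here too the libraries intermixed, at −0.08 (−0.30 to 0.13, edgeR adjusted p = 0.625). The window before the *GCLM* start carries the motif printed above. *GSS*, which adds glycine in the last step, had a log2 fold change of 0.02 and *GSR*, which reduces glutathione disulfide, one of 0.21. The summed level of these 5 genes was 104 to 114 FPKM in S541 and 93.1 to 111 FPKM in DMSO, of which *GSS* made more than any other gene in each library.

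None of the 3 tested glutathione peroxidases passed. *GPX4*, which reduces lipid peroxides in membranes, had 172, 163 and 195 CPM in S541 and 205, 222 and 206 CPM in DMSO. Its S541 libraries all lay below the DMSO libraries, by a log2 fold change of −0.26 (95% interval −0.47 to −0.04, edgeR adjusted p = 0.136). *GPX1*, the abundant cytosolic form, had 305, 462 and 370 CPM in S541 and 276, 306 and 273 CPM in DMSO. The lowest S541 library fell just below the highest DMSO library, the S541 libraries differed among themselves by more than those of DMSO, and the log2 fold change was 0.41 (edgeR adjusted p = 0.127). *GPX8*, an enzyme of the endoplasmic reticulum, had 20.3, 23.3 and 38.2 CPM in S541 and 47.0, 37.1 and 18.8 CPM in DMSO, so that the DMSO libraries enclosed those of S541. The range of the 3 log2 fold changes was −0.33 to 0.41.

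The 10 glutathione transferases, which couple glutathione to electrophiles, gave 0 calls, with log2 fold changes above 0 in 3 and below 0 in 7 and a median of −0.16. *GSTP1* supplied the larger part of their summed level, 62.8 to 63.6% in S541 and 56.6 to 67.2% in DMSO. It had 720.0, 745 and 844 CPM in S541 and 759, 1045 and 561 CPM in DMSO. The DMSO libraries enclosed all S541 libraries, at a log2 fold change of −0.03 (95% interval −0.50 to 0.43, edgeR adjusted p = 0.940). *GSTA4* (−0.59), *GSTK1* (−0.26), *GSTM3* (−0.25) and *GSTM4* (−0.13) had every S541 library below every DMSO library and adjusted p from 0.122 to 0.512 in edgeR. *MGST1*, a microsomal transferase, had every S541 library above every DMSO library at 0.12 (edgeR adjusted p = 0.448). *GSTO1*, *MGST2* and *MGST3* overlapped, at 0.13, 0.12 and −0.20.

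*GSTM2*, a muscle-type class mu transferase, had the widest spread of the list. It had 14.1, 1.25 and 0.65 CPM in S541 and 15.8, 13.3 and 23.8 CPM in DMSO. S541 replicate 1 was at the level of the DMSO libraries while the other two S541 libraries were far below them, a ratio of 21.8 between the highest and the lowest S541 library. The log2 fold change was −1.74 ± 0.89 (SE, edgeR adjusted p = 0.273) with all libraries and −4.19 (edgeR adjusted p = 0.0129) without S541 replicate 1. Its exons share 10.2% of their bases with *GSTM1* and *GSTM4*. These neighbours did not follow the same pattern: *GSTM1* had 51.6, 50.8 and 58.9 CPM in S541 and 67.8, 84.1 and 68.5 CPM in DMSO. *GSTM4* had 25.8, 26.3 and 26.8 CPM in S541 and 26.9, 32.1 and 27.5 CPM in DMSO. No library of either neighbour stood apart as those of *GSTM2* did.

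**Figure D3:**
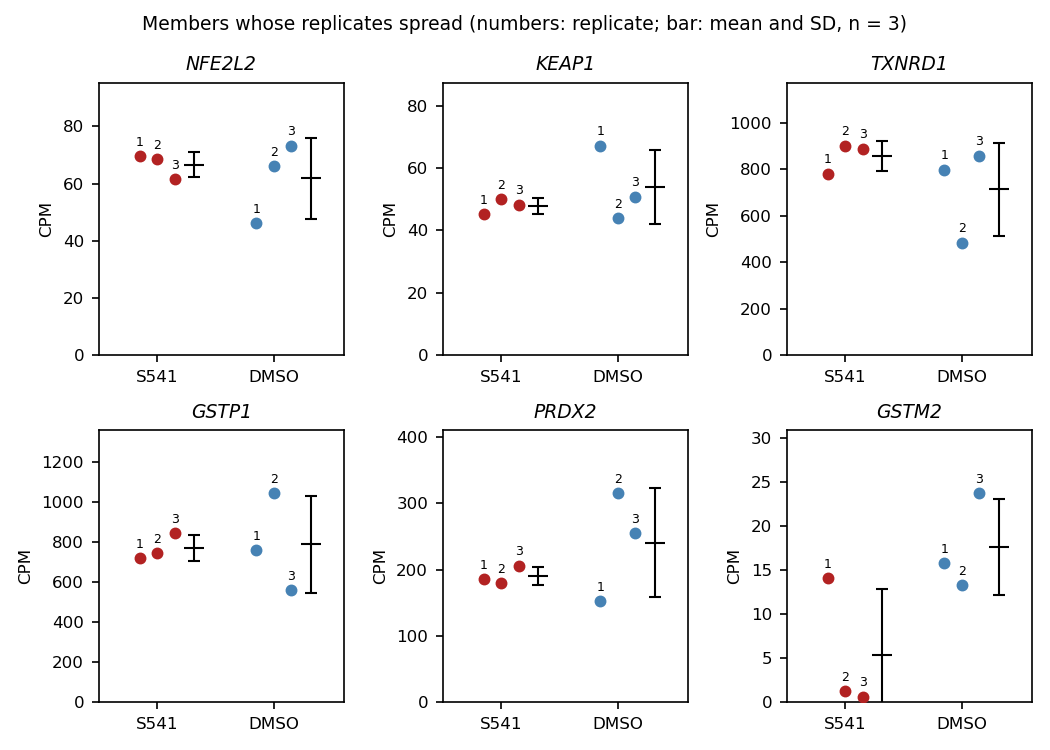
CPM in each library (S541 red, left; DMSO blue, right; numbers are replicates; black bars are mean and SD, n = 3, drawn down to 0 where the SD bar of *GSTM2* in S541 would go below it) for genes whose replicates spread. DMSO replicate 1 stands apart in *NFE2L2* and *KEAP1*, DMSO replicate 2 in *TXNRD1*, and S541 replicate 1 in *GSTM2*.

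In the thioredoxin system 1 of 5 genes passed. *SRXN1* (ENSG00000271303, chromosome 20, 646615 to 653370, hg38) encodes sulfiredoxin, which returns overoxidised peroxiredoxins to the active form. It had 98.0, 103.9 and 109.6 CPM in S541 and 72.6, 72.2 and 82.7 CPM in DMSO. The groups did not overlap. The means were 104 ± 5.81 CPM in S541 and 75.8 ± 5.93 CPM in DMSO (SD, n = 3 each), with a log2 fold change of 0.45 ± 0.09 (SE, edgeR adjusted p = 0.0274). The call is a marginal one. Of the 6 fits that each leave out 1 library, it passed only without DMSO replicate 2 (0.0466), and the edgeR adjusted p was 0.0720, 0.0970 and 0.0865 without S541 replicates 1, 2 and 3, and 0.0859 and 0.0515 without DMSO replicates 1 and 3. Without the filter on low counts it was 0.0523. The gene shares 85.0% of its exon bases on the same strand with *AL121758.1*, which held 0 to 1 counts per library, so the 2 genes cannot be fully told apart.

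Thioredoxin and its reductases did not pass. *TXN*, cytosolic thioredoxin, had 297, 356 and 346 CPM in S541 and 303, 301 and 270.3 CPM in DMSO. S541 replicate 1 lay within the DMSO range and the other two above it, with a log2 fold change of 0.19 (95% interval −0.03 to 0.41, edgeR adjusted p = 0.273). *TXNRD1*, the cytosolic reductase and a known NRF2 target, had 781, 901 and 888 CPM in S541 and 798, 485 and 858 CPM in DMSO. DMSO replicate 2 alone was low, and the log2 fold change was 0.26 (−0.19 to 0.71, edgeR adjusted p = 0.459) with it and 0.05 without it. In the mitochondrion, *TXN2* had a log2 fold change of −0.08 and *TXNRD2* one of −0.26, both with overlapping libraries. The system summed to 304 to 353 FPKM in S541 and 276 to 293 FPKM in DMSO, of which *TXN* made 68.2 to 69.8% in S541 and 65.9 to 72.8% in DMSO.

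The 6 peroxiredoxins, which reduce hydrogen peroxide with electrons from thioredoxin, or from glutathione for *PRDX6*, gave 0 calls and had the smallest median absolute log2 fold change of all the roles, 0.07. Together they summed to 902 to 965 FPKM in S541 and 899 to 955 FPKM in DMSO, and *PRDX1* made 39.3 to 42.0% of this in S541 and 39.3 to 43.4% in DMSO. *PRDX1*, *PRDX3*, *PRDX5* and *PRDX6* had log2 fold changes of −0.03, −0.05, 0.09 and −0.05, and their 95% intervals all lay between −0.27 and 0.29. *PRDX4*, a secreted and endoplasmic reticulum form, was at 0.09 (−0.22 to 0.40). Of the exon bases of *PRDX1*, 24.9% overlap *MMACHC* on the other strand, which had 297 to 491 counts per library. *PRDX2* had 186, 179 and 206 CPM in S541 and 153, 315 and 255 CPM in DMSO. Its DMSO libraries enclosed those of S541, and the log2 fold change was −0.34 (−0.87 to 0.19, edgeR adjusted p = 0.413).

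Of 3 genes for superoxide dismutases and catalase, *SOD2* (ENSG00000112096, chromosome 6, 159669057 to 159762529, hg38) rose. It encodes the manganese enzyme of the mitochondrial matrix. Its values were 108.8, 112.5 and 117.0 CPM in S541 and 87.0, 84.9 and 81.0 CPM in DMSO. Each group held together closely and the groups did not overlap. The means were 113 ± 4.10 CPM in S541 and 84.3 ± 3.02 CPM in DMSO (SD, n = 3 each), a log2 fold change of 0.42 ± 0.08 (SE, edgeR adjusted p = 0.0215). This call too passed only without DMSO replicate 2 (0.0297) when 1 library was left out; the edgeR adjusted p was 0.0660, 0.0776 and 0.0679 without S541 replicates 1, 2 and 3, and 0.0564 and 0.0865 without DMSO replicates 1 and 3. The annotation used for exon overlaps gives *SOD2* a different span from the deposited one. In that annotation its exons share 6.93% of their bases with a second gene model of the same symbol and with *WTAP*. The copper-zinc enzyme *SOD1* had 206, 192 and 220.4 CPM in S541 and 166, 203 and 153 CPM in DMSO, which overlap, at 0.25 (edgeR adjusted p = 0.247). Catalase, *CAT*, had every S541 library below every DMSO library, by a log2 fold change of −0.11 (edgeR adjusted p = 0.442).

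**Figure D4:**
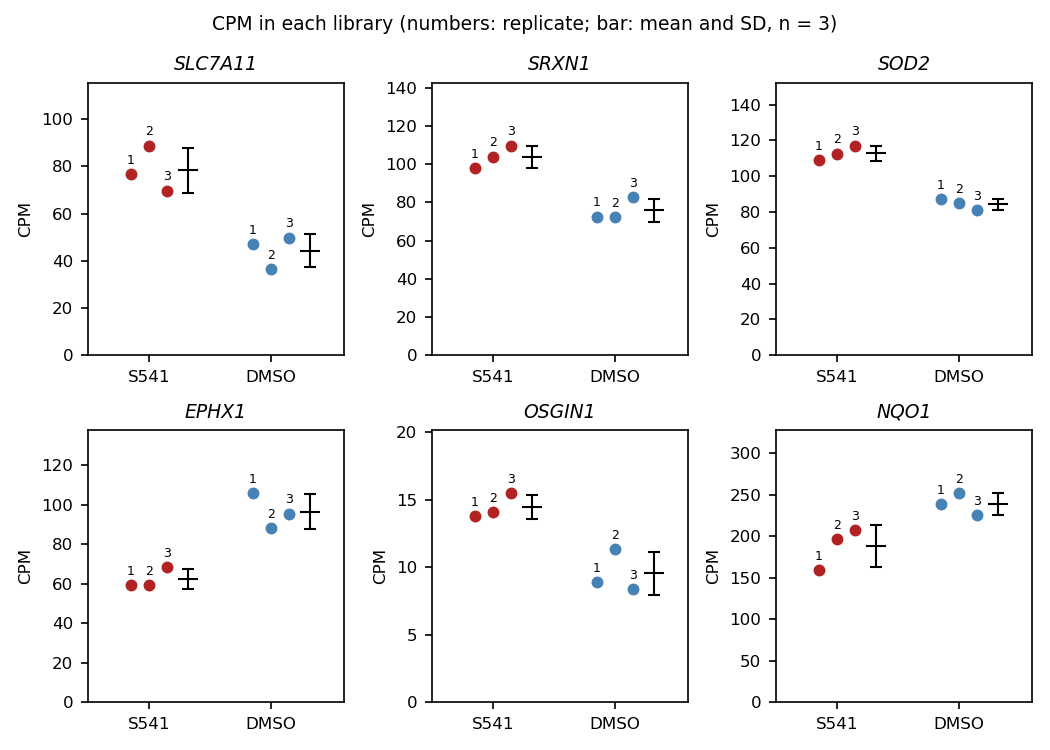
CPM in each library (S541 red, left; DMSO blue, right; numbers are replicates; black bars are mean and SD, n = 3) for the 4 genes that passed the test and for *OSGIN1* and *NQO1*, which did not. In all 6 panels the libraries of the groups do not overlap; *SLC7A11* shows the highest ratio, 1.77-fold, among the genes that passed.

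Among the 7 detoxification and heme genes, 1 fell and 6 did not pass. *EPHX1* (ENSG00000143819, chromosome 1, 225810092 to 225845563, hg38) encodes the microsomal epoxide hydrolase, which opens reactive epoxides. It had 59.4, 59.3 and 68.3 CPM in S541 and 105.8, 88.1 and 95.4 CPM in DMSO. All S541 libraries lay below all DMSO libraries. The means were 62.3 ± 5.18 CPM in S541 and 96.4 ± 8.93 CPM in DMSO (SD, n = 3 each), and the log2 fold change was −0.63 ± 0.11 (SE, edgeR adjusted p = 0.0143; 0.00284 in the authors' deposited table). The edgeR adjusted p was 0.0713 and 0.0695 without S541 replicates 1 and 2, and 0.0572 without DMSO replicate 3, with log2 fold changes of −0.59, −0.59 and −0.63. One of its 3 promoter windows carries the motif printed above.

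*NQO1*, the quinone reductase commonly used to read NRF2 activity, had 159, 197 and 208 CPM in S541 and 238, 252 and 225 CPM in DMSO. Every S541 library was below every DMSO library, with a log2 fold change of −0.35 (95% interval −0.60 to −0.09), but it did not pass (edgeR adjusted p = 0.102). An antisense gene with 0 to 1 counts per library, *AC092115.2*, overlaps 17.7% of its exon bases. *HMOX1*, which breaks heme down to biliverdin, had 25.9, 24.6 and 29.3 CPM in S541 and 21.1, 24.4 and 21.5 CPM in DMSO. Its groups were barely apart, at 0.25 (−0.02 to 0.52, edgeR adjusted p = 0.235). *OSGIN1*, an oxidative stress-induced growth inhibitor, had 13.8, 14.1 and 15.5 CPM in S541 and 8.91, 11.3 and 8.41 CPM in DMSO. Its S541 libraries were all higher, and at a log2 fold change of 0.60 ± 0.15 (SE) the edgeR adjusted p was 0.0545. It passed with DESeq2 (adjusted p = 0.0243), limma-voom (0.0491), robust estimation of the spread (0.0495) and without DMSO replicate 2 (0.0258). *UGDH*, which makes UDP-glucuronate, and the carbonyl reductases *CBR1* and *CBR3* had log2 fold changes of −0.05, −0.18 and 0.07 with overlapping libraries.

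Ferritin did not pass. *FTL* had 836, 854 and 1057 CPM in S541 and 693, 923 and 698 CPM in DMSO. DMSO replicate 2 lay above S541 replicates 1 and 2, and the log2 fold change was 0.25 (95% interval −0.08 to 0.57, edgeR adjusted p = 0.328). *FTH1* had 2744, 2515 and 2869 CPM in S541 and 2491, 2971 and 2432 CPM in DMSO, with a log2 fold change of 0.04. *FTH1* counts are uncertain: 62.4% of its exon bases overlap *BEST1* on the other strand, and 25 annotated pseudogenes together held counts equal to 7.69 to 9.42% of those of *FTH1*.

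Without overlap between the groups' libraries were 14 of the 43 tested genes, 6 higher and 8 lower in S541, against 31.1% of all tested genes (15.9% higher, 15.2% lower). At an unadjusted p under 0.05 there were 11, beside 24.8% of all tested genes. In the authors' deposited table, 2 of the 45 genes had an adjusted p-value under 0.05, *SLC7A11* higher and *EPHX1* lower, where that table holds 1199 such genes of 28099.

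The wider pathway was read from 116 further genes, of which 97 were tested: 2 rose and 9 fell (11.3%, beside 8.19% of all tested genes), with a median log2 fold change of −0.06. Without overlap were 14 higher and 27 lower in S541, beside 15.9% higher and 15.2% lower over all tested genes. The 15 tested partners and regulators of NRF2 turnover, among them the small MAF genes, *BACH1*, *CUL3* and *SQSTM1*, gave 0 calls. *MAFK*, a small MAF partner of NRF2, had 416 ± 44.0 CPM in S541 and 310 ± 56.4 CPM in DMSO without overlap (log2 fold change 0.42, edgeR adjusted p = 0.116). The small MAF genes *MAFF* (0.64, edgeR adjusted p = 0.356) and *MAFG* (0.41, edgeR adjusted p = 0.691) had overlapping libraries. Their highest S541 library was 3.21 and 3.28 times the lowest, and their highest DMSO library 1.35 and 2.76 times the lowest.

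Of the 23 tested other NRF2 target genes, 3 fell and 0 rose, beside 4.17% of all tested genes called lower. Of the log2 fold changes, 20 of the 23 were below 0, as were 7962 of all 15847. *AKR1C3*, an aldo-keto reductase of steroids and prostaglandins, had 92.9, 95.6 and 103.0 CPM in S541 and 274, 169 and 239 CPM in DMSO. The S541 libraries were close together and all below the DMSO libraries, with means of 97.2 ± 5.24 CPM in S541 and 227 ± 53.5 CPM in DMSO, a log2 fold change of −1.23 ± 0.17 (SE, edgeR adjusted p = 0.00758) and a call in all 15 alternative fits. *TSKU*, a secreted leucine-rich protein, had 39.6, 38.6 and 67.2 CPM in S541 and 159, 204 and 87.6 CPM in DMSO. It fell, with a log2 fold change of −1.63 ± 0.33 (SE, edgeR adjusted p = 0.0259), the libraries of both groups spread widely, and the call was lost without S541 replicate 1 (0.0987), S541 replicate 2 (0.105) or DMSO replicate 1 (0.0657). *ALDH3A1*, an aldehyde dehydrogenase, fell, with 4.70 ± 0.270 CPM in S541 and 8.01 ± 0.346 CPM in DMSO and a log2 fold change of −0.77 ± 0.14 (SE, edgeR adjusted p = 0.0208).

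Related reductases were low in DMSO replicate 2 as well as in S541. *AKR1B1*, aldose reductase, had 738, 738 and 668 CPM in S541 and 1954, 785 and 1381 CPM in DMSO. DMSO replicate 2 was close to the S541 libraries, and the log2 fold change was −0.94 (edgeR adjusted p = 0.0786). *AKR1C1* had 13.4, 16.3 and 16.4 CPM in S541 and 47.9, 14.3 and 31.6 CPM in DMSO, with DMSO replicate 2 inside the S541 range, at −1.02 (edgeR adjusted p = 0.140). *AKR1B10*, often used as a sign of constant NRF2 activity, was near the detection limit in every library, with 0.70, 0.69 and 0.84 CPM in S541 and 1.08, 0.72 and 0.79 CPM in DMSO. The low *AKR1B10* and *GPX2* counts stand beside the background knowledge that A549 has high NRF2 activity. Other NRF2 target genes were far above the detection limit, with DMSO means of 714 CPM for *TXNRD1*, 239 CPM for *NQO1* and 227 CPM for *AKR1C3*. The identity of the line was not tested.

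Among the 17 tested thioredoxin and glutaredoxin relatives, 2 rose and 1 fell, beside 4.02% called higher and 4.17% called lower over all tested genes. *GLRX3*, a glutaredoxin that handles iron-sulfur clusters, had 218, 230.1 and 242 CPM in S541 and 149, 160 and 141 CPM in DMSO. No library overlapped, the means were 230.3 ± 12.0 CPM in S541 and 150.1 ± 9.10 CPM in DMSO, and the log2 fold change of 0.62 ± 0.08 (SE, edgeR adjusted p = 0.00759) passed in all 15 alternative fits. *TXNDC17*, a thioredoxin-related protein, rose, with 68.7 ± 3.63 CPM in S541 and 52.6 ± 2.55 CPM in DMSO and a log2 fold change of 0.38 ± 0.09 (SE, edgeR adjusted p = 0.0405). *TXNRD3*, a reductase with an added glutaredoxin domain, had 8.84 ± 1.05 CPM in S541 and 14.1 ± 1.26 CPM in DMSO and fell, with a log2 fold change of −0.67 ± 0.15 (SE, edgeR adjusted p = 0.0333). *TXNIP*, the inhibitor of thioredoxin, had a log2 fold change of −0.17 (edgeR adjusted p = 0.453).

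In NADPH supply 2 of 13 genes fell and 0 rose, beside 4.17% called lower over all tested genes. Log2 fold changes were below 0 in 11 of the 13 and in 7962 of all 15847. *NNT*, which makes NADPH in the inner mitochondrial membrane, had 223, 237 and 207 CPM in S541 and 323, 308 and 335 CPM in DMSO. Groups did not overlap (log2 fold change −0.53 ± 0.08 SE, edgeR adjusted p = 0.0119). *IDH1*, which makes NADPH in the cytosol, had 82.4 ± 2.13 CPM in S541 and 112.5 ± 4.46 CPM in DMSO (−0.45 ± 0.08 SE, edgeR adjusted p = 0.0164). Of the 18 tested other glutathione genes, 1 fell and 0 rose (5.56%, beside 8.19% of all tested genes called in either direction). The gene that fell was *LANCL1*, at 78.0 ± 4.88 CPM in S541 and 107.5 ± 5.53 CPM in DMSO (−0.46 ± 0.09 SE, edgeR adjusted p = 0.0221). *CHAC1*, which degrades glutathione, had the highest log2 fold change of the 18, 0.81, at 3.29 ± 0.361 CPM in S541 and 1.89 ± 0.833 CPM in DMSO (edgeR adjusted p = 0.152).

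In heme and iron handling 2 of 11 genes fell and 0 rose, where 4.17% of all tested genes were called lower. *FECH*, the mitochondrial enzyme that inserts iron into heme, had 25.4, 26.6 and 30.0 CPM in S541 and 42.4, 35.6 and 42.1 CPM in DMSO, with no overlap (−0.55 ± 0.12 SE, edgeR adjusted p = 0.0309). *SLC48A1*, a heme transporter, had 69.6 ± 3.82 CPM in S541 and 88.6 ± 1.78 CPM in DMSO (−0.35 ± 0.08 SE, edgeR adjusted p = 0.0429). *TFRC*, the transferrin receptor, did not pass, at −0.29 (edgeR adjusted p = 0.111). Leaving out any 1 of the S541 libraries, DMSO replicate 1 or DMSO replicate 3 ended the calls of *IDH1*, *LANCL1*, *ALDH3A1*, *FECH* and *TXNDC17*, with adjusted p from 0.0530 to 0.138 in edgeR. *TXNRD3* and *SLC48A1* lost theirs without any 1 of the 6 libraries (0.0503 to 0.160), and *NNT* without S541 replicate 1 (0.0544) or DMSO replicate 3 (0.0558).

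**Figure D5:**
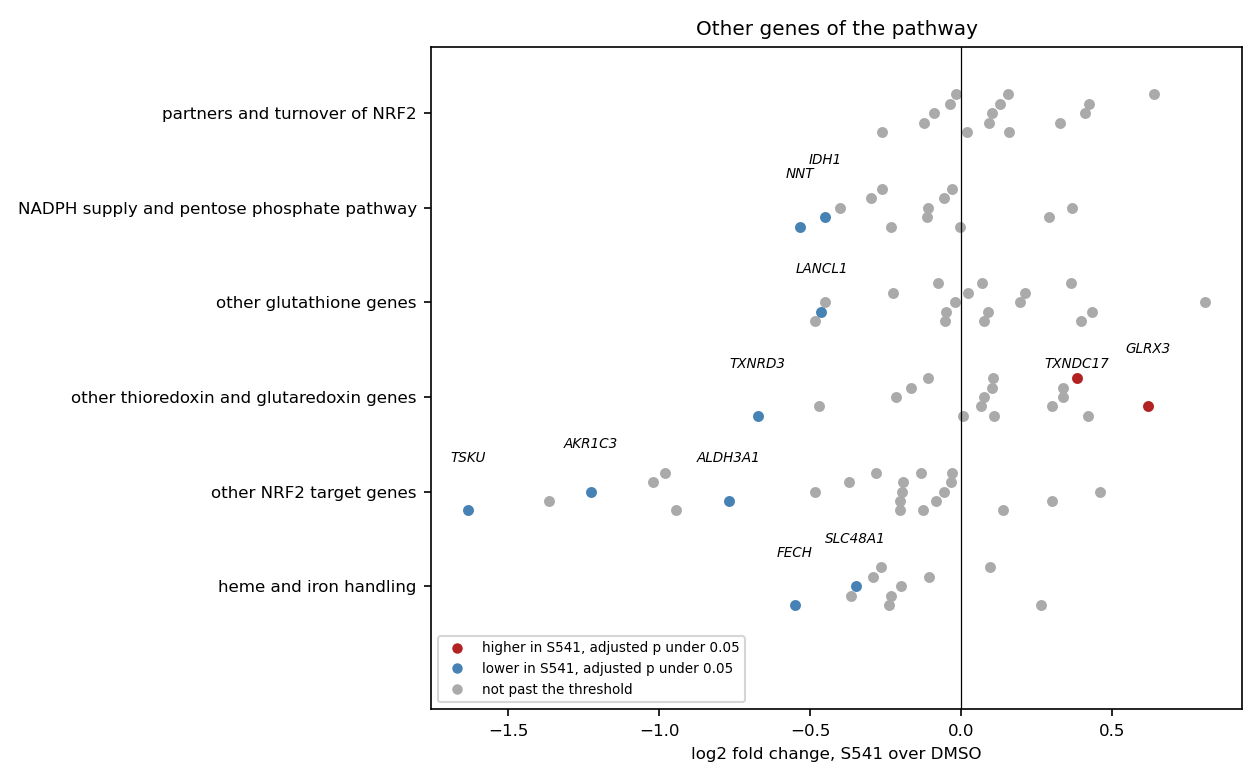
Log2 fold change, S541 over DMSO, of the 97 tested other genes of the pathway, 1 point per gene, in 6 groups; vertical offsets within a group only separate the points. Red points (*GLRX3*, *TXNDC17*) rose, blue points fell, and most points of the other NRF2 target genes lie left of 0.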

How the data were processed

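RNA-seq of 6 A549 libraries was analysed from the deposited table of all genes. Its whole-number counts per gene and FPKM values were made by the authors and named so per the file headers. Per the submitters' processing notes the build is hg38 and edgeR was used; the aligner, the counter and the strand setting are not given in the sources here. The authors' deposited comparison gives log2 fold changes, p-values and adjusted p-values. The counts were fitted in R 4.3.3 with edgeR 4.0.16 (TMM, filterByExpr with a minimum count of 10, glmQLFit and glmQLFTest, group as the only term, 2-sided), with Benjamini-Hochberg adjustment over 15847 genes and a threshold of 0.05. CPM values are TMM-scaled, and FPKM, which is per length, was used to compare genes. The lengths behind FPKM did not follow annotated exon bases in every gene, which limits such comparisons. Total counts were 13956648 to 17044139, and the common biological coefficient of variation was 0.163. The functions were tested on simulated data. GENCODE release 29 gave exon overlaps, and RefSeq the promoters.

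All genes of the list are accounted for; those past the threshold and 11 set genes are given with every library's value, and the others by range and counts, except some given in full to show their spread, which were picked once values were known. Other pathway genes are named where they passed without overlap and the higher group reached at least 1 CPM; *SLC3A2*, *MAFK*, *AKR1B1*, *AKR1B10*, *AKR1C1*, *GSTM1*, *CHAC1*, *TXNIP* and *TFRC* were picked once values were known. One gene of the pathway is not reported here. The members and lists were chosen with earlier results of these data known. Alternatives were RLE and upper-quartile scaling, 2 other filters, DESeq2 1.42.0, limma-voom (limma 3.58.1), robust estimation, a replicate block and leaving out each library. Leaving out DMSO replicate 2 and S541 replicate 3 together was added after seeing the data.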

Additional observations from a re-analysis of the deposited data

How the results depend on the processing

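Against 3 genes of the list higher and 1 lower in S541, a fit with the replicate block gave 0 higher and 0 lower, and leaving out 1 library gave 0 to 4 higher and 0 to 1 lower. For the other pathway genes (2 higher, 9 lower) the block gave 1 higher and 1 lower, DESeq2 5 and 16, leaving out 1 library 1 to 4 and 1 to 12, no filter on low counts 1 higher, and leaving out DMSO replicate 2 with S541 replicate 3 1 higher. Of all genes, 1298 passed, against 753 with no filter, 392 with the block and 349 to 1330 when 1 library was left out (375, 349 and 550 without S541 replicates 1, 2 and 3; 628, 1330 and 398 without DMSO replicates 1, 2 and 3). Correlations between S541 and DMSO libraries of the same replicate number were 0.10, −0.08 and −0.08. The highest correlation was 0.20, between S541 replicate 3 and DMSO replicate 2. Whether libraries of the same number were handled together was not tested. RLE scaling, upper-quartile scaling and a minimum of 1 CPM in 3 libraries each kept all 4 calls of the list. Signs changed in genes that did not pass: *GSTP1* was at 0.0084 with limma-voom, 0.0072 with the block and 0.15 without DMSO replicate 2 and S541 replicate 3, and *PRDX4* at −0.01 without those 2. With 1 library left out, log2 fold changes crossed 0 in *NFE2L2* (−0.067 to 0.25), *KEAP1* (−0.30 to 0.015), *GSS* (−0.037 to 0.12), *GSTP1* (−0.22 to 0.22), *TXN2* (−0.18 to 0.060), *PRDX1* (−0.10 to 0.032), *PRDX3* (−0.10 to 0.019), *PRDX4* (−0.033 to 0.18), *PRDX6* (−0.12 to 0.010), *UGDH* (−0.10 to 0.022), *CBR3* (−0.051 to 0.29) and *FTH1* (−0.0044 to 0.14). The cause was not tested. With 3 libraries a group, the 95% intervals show how closely each fold change is known. They are not adjusted for the number of genes. Some, such as that of *NQO1* (−0.60 to −0.09), left out 0 in genes that did not pass.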
